A study of Homo sapiens with 6 samples.

Results

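TNFAIP2 and 9 other effector genes of the TNF and NF-kB response were followed in HCC1806/HM3 cells with and without knockdown of mesothelin (MSLN). The 10 genes, TNFAIP2, SOD2, ICAM1, IER3, TNIP1, ZC3H12A, NFKBIZ, PTGS2, IL32 and CSF1, are rows of a table of 17860 genes and were found by symbol. They were picked partly on the comparison described here, because TNFAIP2 was lower and SOD2 higher after knockdown in the read counts, so their differences between the groups are a description. Where it is said which of them passed the threshold of the fit over all genes (called), the share of all genes that did so is given, and nothing rests on it. All 10 had a value in every sample and passed the filter on low counts.

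HCC1806/HM3 cells descend from HCC1806, a human breast cancer line, through repeated selection of liver metastases in mice, and the labels call its cells breast squamous cell carcinoma cells. RNA-Seq was run on 3 control samples (shNC) and 3 MSLN knockdown samples (shMSLN). Both groups carried a lentiviral shRNA vector with neomycin resistance and had been selected with G418 as stable lines, so the controls share infection and selection with the knockdown. The labels name neither which shRNA was used nor whether the 3 samples of a group were separate cultures, and 1 parental line was used, so the spread between samples may be technical. MSLN, the targeted gene, was at 231, 226 and 227 CPM (reads scaled to library size) in shNC and at 37.1, 36.2 and 35.4 CPM in shMSLN, a log2 fold change of -2.65 with a standard error (SE) of 0.04.

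NF-kB is a family of dimeric transcription factors held in the cytoplasm by IkB proteins. TNF, IL-1 and other signals activate the IKK kinases, which mark IkB for destruction, and the freed dimers enter the nucleus and bind kB sites in DNA. The genes they switch on include chemokines, adhesion molecules and survival factors, and also brakes that shut the response off again, among them the IkB proteins themselves.

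Each sample held from 17507837 to 18512135 estimated reads in total. In the deposited table the shMSLN columns alone had missing marks, which removed 1287 genes, none of them among the 10. Replicates 2 and 3 of shMSLN stood apart in their share of whole numbers among the estimated counts. Of genes with over 100 reads, 47.67% and 47.75% had a whole number, against 3.36% to 7.02% in the other 4 samples. The cause was not tested. Epithelial markers were expressed, EPCAM at a mean of 246 CPM in shNC and 241 CPM in shMSLN. Of 8 tested, CDH1 (0.15) and KRT17 (0.16) were higher and KRT5 (-0.38), KRT18 (-0.16) and TP63 (-0.22) lower in log2 fold change, and KRT14 was at 3.52 and 3.98 CPM. Leukocyte markers summed to 29.4 to 31.8 CPM in shNC and 28.6 to 30.7 CPM in shMSLN, with 0 of 4 tested called. CD68 was the highest of them, at a mean of 23.8 and 22.0 CPM, and CD3E stayed at or below 0.0565 CPM. Fibroblast markers summed to 94.0 to 97.7 CPM in shNC and 159 to 163 CPM in shMSLN. LUM and DCN were higher among 4 tested (1 to 2 called with 1 sample left out). LUM was at a mean of 60.3 and 125.2 CPM, COL1A1 at 31.0 and 31.4 CPM, and COL1A2 at or below 0.43 CPM. Endothelial markers summed to 7.32 to 8.81 CPM and 8.76 to 9.94 CPM, with VWF higher among 3 tested (0 to 2 called with 1 sample left out). VWF was at a mean of 5.06 and 6.73 CPM, and KDR at or below 0.395 CPM. Of all tested genes, 34.6% were called, and the part of these markers in the results below was not tested.

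RefSeq promoter windows were found for 8 of the 10 genes, 14 windows in all, each with 250 bases before and 50 bases from a transcription start. The 5 windows printed here are those of the pair that moved apart in the counts and 1 window from each of the 3 genes that held a kB consensus match. Capitals mark such a match, on either strand, and the first transcribed base is counted as 1. All are in the genes' own 5′ to 3′ direction on GRCh38.p14.
TNFAIP2 (chr14:103123211-103123510, plus strand): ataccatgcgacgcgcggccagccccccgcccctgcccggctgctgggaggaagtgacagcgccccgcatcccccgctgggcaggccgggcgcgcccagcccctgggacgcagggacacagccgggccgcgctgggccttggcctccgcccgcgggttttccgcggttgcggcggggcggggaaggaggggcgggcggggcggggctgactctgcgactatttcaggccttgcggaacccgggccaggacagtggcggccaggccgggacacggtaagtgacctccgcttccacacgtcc
SOD2 (chr6:159693192-159693491, minus strand): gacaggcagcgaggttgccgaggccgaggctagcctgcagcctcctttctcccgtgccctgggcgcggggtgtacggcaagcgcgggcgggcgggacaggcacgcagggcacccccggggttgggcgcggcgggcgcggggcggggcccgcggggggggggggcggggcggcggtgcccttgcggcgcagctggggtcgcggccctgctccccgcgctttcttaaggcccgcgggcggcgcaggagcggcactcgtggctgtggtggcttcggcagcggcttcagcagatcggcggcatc
TNIP1 (chr5:151080985-151081284, minus strand): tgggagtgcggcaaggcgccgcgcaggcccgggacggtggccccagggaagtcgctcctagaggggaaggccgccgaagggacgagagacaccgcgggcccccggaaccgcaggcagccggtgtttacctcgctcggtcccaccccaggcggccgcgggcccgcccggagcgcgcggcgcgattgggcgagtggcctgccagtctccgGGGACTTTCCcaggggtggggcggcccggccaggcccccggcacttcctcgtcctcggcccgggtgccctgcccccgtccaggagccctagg
NFKBIZ (chr3:101827740-101828039, plus strand): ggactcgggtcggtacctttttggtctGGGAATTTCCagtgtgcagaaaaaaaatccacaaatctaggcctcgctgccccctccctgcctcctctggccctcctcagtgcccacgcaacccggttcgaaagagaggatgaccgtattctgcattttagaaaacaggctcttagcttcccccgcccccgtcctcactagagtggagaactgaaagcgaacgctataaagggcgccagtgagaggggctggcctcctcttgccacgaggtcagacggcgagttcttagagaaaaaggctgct
IL32 (chr16:3065153-3065452, plus strand): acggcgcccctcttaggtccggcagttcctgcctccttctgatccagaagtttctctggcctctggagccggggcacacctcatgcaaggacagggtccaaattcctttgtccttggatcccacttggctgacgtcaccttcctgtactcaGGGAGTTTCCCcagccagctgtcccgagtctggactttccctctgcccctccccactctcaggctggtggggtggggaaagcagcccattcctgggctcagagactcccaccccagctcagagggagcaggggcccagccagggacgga

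The kB consensus occurred in 4 of the 14 windows, and in 11.3% of all 34943 windows of the same length. Its match lay at bases -42 to -33 in TNIP1, at -223 to -214 in NFKBIZ and, as overlapping matches on both strands, at -99 to -89 in IL32. The second NFKBIZ window also held one, at -239 to -230. TNFAIP2 had 1 window and SOD2 4 windows, none with these letters, and the SOD2 window printed is the one with most matches to the looser word. That looser word, 3 G and 2 C with any 5 bases between them, was in all 14 windows and in 58.6% of all windows. The AP-1 word TGANTCA was in 0 of 14 and in 7.72% of all windows. Windows of the 10 genes had a GC content of 50.7% to 79.0%, against a median of 58.7% over all windows. The consensus searched starts with 3 G and limits further bases, so some kB-like words were not counted as its matches. Among them were TGGAAATTCC in the ICAM1 window and GGGACTACCC at -224 to -215 in the PTGS2 window. The PTGS2 word is a match to the looser word. Whether any of these words is bound by NF-kB was not tested. Of the 8 genes with a window, TNIP1 and IL32, with a consensus match, and TNFAIP2, ICAM1 and ZC3H12A, without one, were all lower after knockdown. NFKBIZ, with a consensus match, and PTGS2, with looser matches only, overlapped between the groups in counts. SOD2, without a consensus match, was higher in counts.

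Levels between genes were compared in TPM, a unit that scales reads for transcript length as well as depth. TNFAIP2 stood far above the others in shNC, at 952, 1009 and 939 TPM, a mean of 967 ± 37.2 TPM (SD, n = 3). It ranked 125 of the 17860 listed genes. TNIP1 followed at 127 ± 2.88 TPM, IER3 at 106 ± 1.62 TPM, SOD2 at 93.6 ± 9.62 TPM and NFKBIZ at 92.9 ± 8.77 TPM. Lower levels were found for ZC3H12A at 24.7 ± 0.909 TPM, ICAM1 at 14.6 ± 2.01 TPM, IL32 at 13.9 ± 2.57 TPM, CSF1 at 10.5 ± 0.69 TPM and PTGS2 at 4.77 ± 0.471 TPM (SD, n = 3 for each).

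Neighbours in this order did not overlap between samples, except SOD2 with NFKBIZ (exact two-sided permutation test, p = 0.9) and ICAM1 with IL32 (p = 0.8, same exact test). For the other neighbours p was 0.1, the smallest that 3 samples against 3 allow. The test did not pair values by sample, though both genes of a pair were measured in the same 3 samples. In shMSLN, TNFAIP2 was still first, at 497 ± 11.7 TPM (SD, n = 3), and SOD2 came second at 95.9 ± 4.3 TPM, ahead of TNIP1 at 95.7 ± 1.58 TPM, NFKBIZ at 88.1 ± 2.6 TPM and IER3 at 83.7 ± 1.32 TPM. SOD2 with TNIP1, ICAM1 with IL32 and IL32 with CSF1 overlapped there. ZC3H12A, ICAM1, IL32, CSF1 and PTGS2 kept their places.

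**Figure D1:**
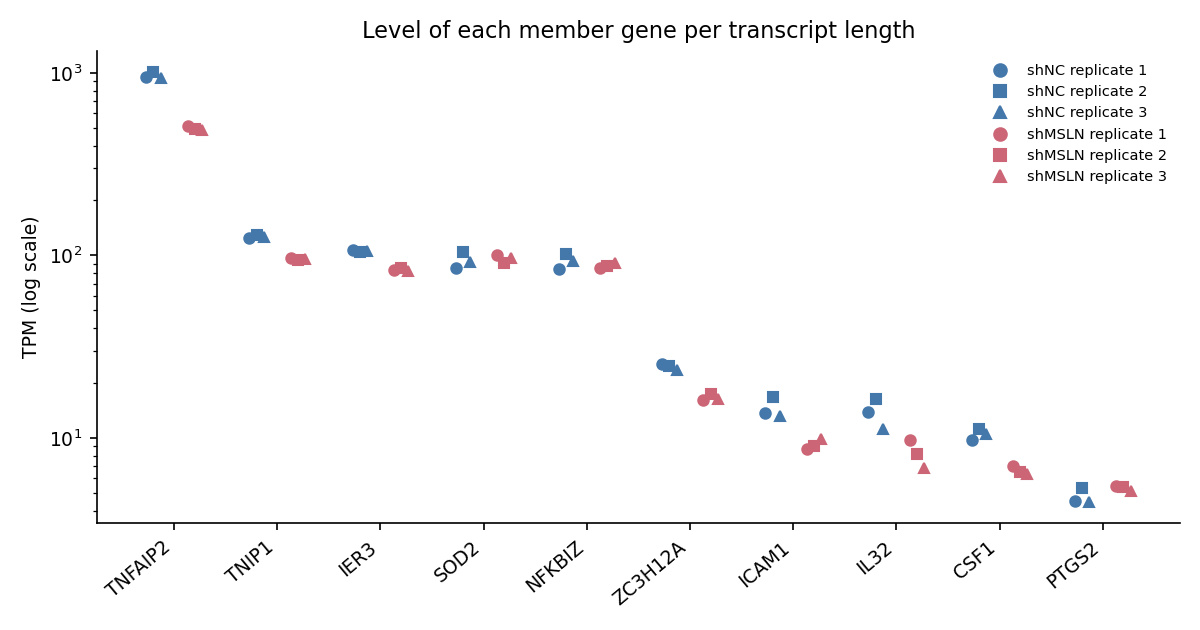
Level of each of the 10 genes in TPM on a log scale, 1 point per sample, shNC in blue and shMSLN in red, ordered by the shNC mean. TNFAIP2 lies above all others in both groups, SOD2 and NFKBIZ share a level in shNC, and 7 genes show no overlap between the groups, as do 44.5% of all tested genes.

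On the count scale, in CPM, 7 of the 10 genes were lower in all 3 shMSLN samples than in any shNC sample, SOD2 was higher in all 3, and NFKBIZ and PTGS2 overlapped. Groups did not overlap in 46.2% of the 14552 genes tested, so 8 of 10 is to be set beside that share. By edgeR's quasi-likelihood test with adjusted p below 0.05, 8 of the 10 were called, 7 lower and 1 higher, where 34.6% of all tested genes were called (2411 higher and 2621 lower, 16.6% and 18.0%). As this contrast chose the genes, nothing is read from those counts. The median log2 fold change of the 10 was -0.52, and that of all tested genes 0.0019. In bulk RNA, fewer cells expressing a gene and less RNA of it per cell cannot be told apart.

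**Figure D2:**
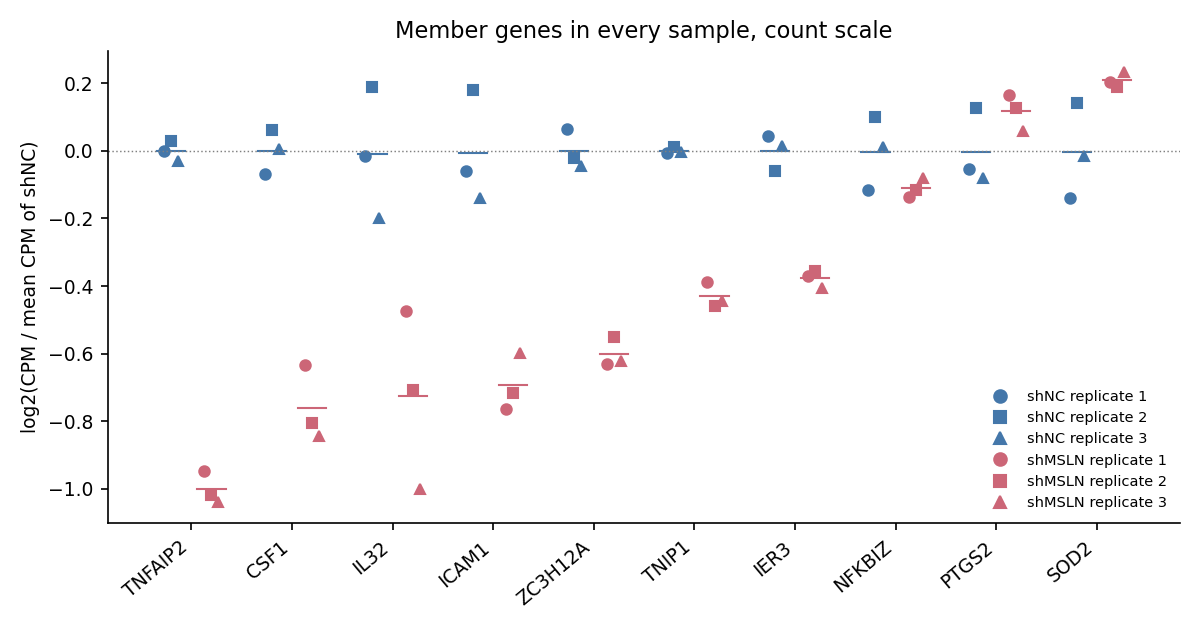
Each sample's CPM over the mean of the 3 shNC samples, on a log2 scale, for the 10 genes ordered by log2 fold change (shNC blue, shMSLN red, lines are group means). TNFAIP2 is lowest with a log2 fold change of -1.0, SOD2 is the one gene above all shNC samples, and the NFKBIZ and PTGS2 samples overlap.

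TNFAIP2 (NCBI Gene 7127; chr14:103123442-103137439, plus strand, GENCODE 29 on GRCh38) encodes a cytosolic protein related to the exocyst subunit EXOC3, named for its induction by TNF and known for forming membrane protrusions and tunnelling nanotubes. It was at 1878, 1917 and 1838 CPM in shNC and at 974, 927 and 914 CPM in shMSLN. The groups lay far apart beside their spread, with SDs of 39.7 and 31.5 CPM. Its log2 fold change was -1.0 (SE 0.03), and 51.4% of the control level was left in TPM. Over the alternatives tried the log2 fold change ran from -1.03 to -0.945, so a 2-fold difference was reached in some and not in others, among the latter upper-quartile scaling.

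TNFAIP2's family and the exocyst, the complex that tethers secretory vesicles to the plasma membrane, were called about as often as genes at large. Of 13 listed genes 12 were tested, 2 of them higher and 2 lower, which is 33.3% beside 34.6% of all genes, with a median log2 fold change of -0.05. RALB, a small GTPase that acts through the exocyst, was higher (0.29, SE 0.05), and EXOC3L2 was higher at very low levels, 0.257 against 0.815 CPM. EXOC3L2 passed the filter on low counts through shMSLN, where it was higher, and a stricter filter left 3 calls. EXOC5 (-0.15, SE 0.04) and RALA (-0.17, SE 0.05) were lower, but EXOC5 was not called without shMSLN replicate 1, nor RALA with DESeq2 or without shNC replicate 3, shMSLN replicate 2 or shMSLN replicate 3.

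Across the 6 samples, the genes whose centred log2 CPM lay nearest to TNFAIP2 among 10502 genes with a mean of at least 10 CPM were BCL3 (distance 0.074), COL5A1 (0.10), INHBA (0.114), ST3GAL1 (0.127) and TCIM (0.149). BCL3 was at 34.8, 34.6 and 32.8 CPM in shNC and at 16.8, 17.0 and 16.3 CPM in shMSLN. The distance takes in the difference between the groups, on which TNFAIP2 was picked. These 5 genes had log2 fold changes of -0.95 to -1.08, beside -1.0 for TNFAIP2. Pearson correlation in place of distance named 0 of these 5 genes, so the list belongs to this measure.

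SOD2 (NCBI Gene 6648; chr6:159669057-159745186, minus strand) encodes the manganese superoxide dismutase of the mitochondrial matrix, an enzyme that turns superoxide into hydrogen peroxide and is a classical survival target of NF-kB. Its CPM was 409, 496 and 445 in shNC and 519, 513 and 529 in shMSLN. Every shMSLN sample was above every shNC sample, and the shNC samples were the more spread, with an SD of 43.8 against 7.98 CPM. The log2 fold change was 0.21 (SE 0.05), or 115.6% of control.

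In TPM the groups overlapped. SOD2 was at 84.9, 103.9 and 91.9 TPM in shNC and at 99.97, 91.4 and 96.3 TPM in shMSLN, so the shMSLN samples fell inside the control range. The mean was 102.5% of control, and the difference on the log2(TPM + 1) scale was 0.04 (SE 0.07).

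The 2 scales differ through the transcript length the authors' values imply, that is, reads divided by FPKM and by total reads. For SOD2 it was 10190, 10520 and 10330 bases in shNC and 11329, 12406 and 12149 bases in shMSLN, with no overlap, a log2 ratio of 0.21. Among 11066 genes above 2 FPKM in all samples, 95% had a ratio between -0.07 and 0.05, and 25 genes (0.226%) had a larger absolute ratio than SOD2. GENCODE 29 has 2 overlapping records named SOD2, the second at chr6:159679119-159762529, with together 11 coding transcripts of 507 to 14266 bases, and how reads were shared among them is not given in the sources used here. TNFAIP2, with lengths of 4139 to 4188 bases in all 6 samples, had a ratio of -0.01. Of the other 8 genes, IL32 (0.07) and CSF1 (-0.06) were the farthest from 0.

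**Figure D3:**
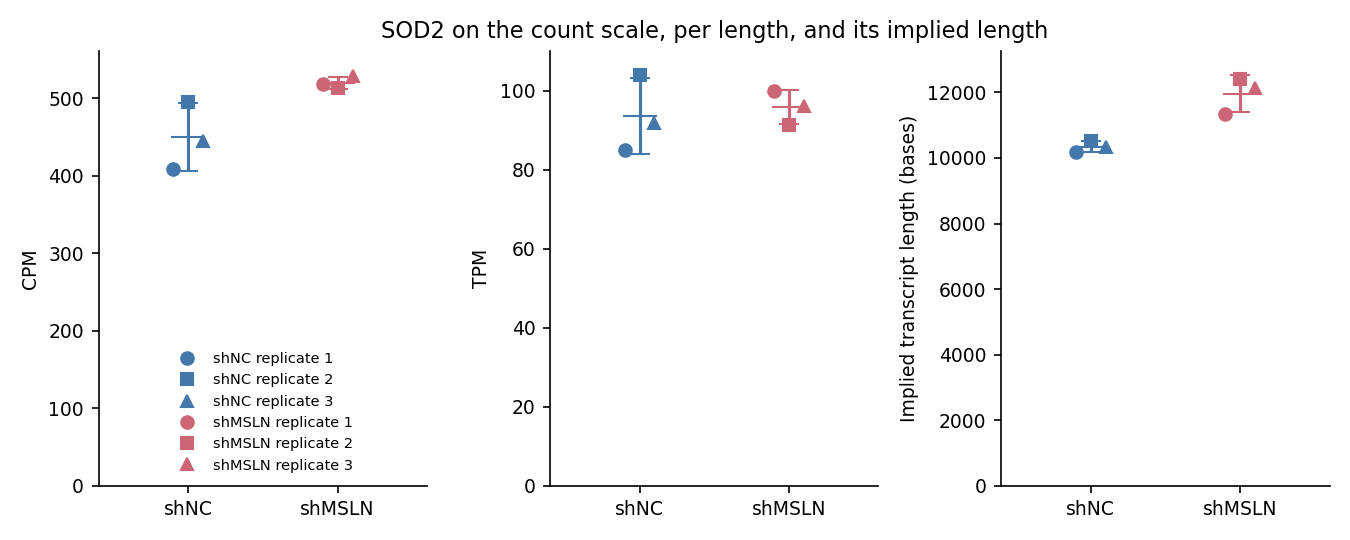
SOD2 in each sample as CPM (left), as TPM (middle) and as the implied transcript length in bases (right), with group mean and SD, n = 3. The shMSLN samples are above all shNC samples in CPM and in length, and within the shNC range in TPM.

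SOD2 overlaps WTAP, a protein-coding gene on the opposite strand, and the strand of counting is not given in the sources used here. WTAP was at 85.3, 89.1 and 90.9 CPM in shNC and at 81.6, 84.2 and 82.5 CPM in shMSLN (log2 fold change -0.10, SE 0.04, adjusted p = 0.10 by edgeR). The pseudogene HNRNPH1P1 and the snRNA gene RNU4ATAC18P also lie within SOD2. What set the difference in length was not tested. With shMSLN replicates 2 and 3 left out, SOD2 had a log2 fold change of 0.21 and was not called.

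Genes near to SOD2 by the same distance included SATB1 (0.046), SEMA3A (0.058), CASD1 (0.062) and BCL11A (0.066). SATB1 was at 68.9, 83.9 and 74.7 CPM in shNC and at 85.0, 84.9 and 90.0 CPM in shMSLN. Its first control sample was low and its second high, as for SOD2, and also for NFKBIZ and REL among others. These 4 genes had log2 fold changes of 0.19 to 0.23, beside 0.21 for SOD2. Pearson correlation named 0 of these 4 as well.

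Enzymes that handle superoxide and peroxide were called at the share of genes at large. Of 9 tested, 2 were higher and 1 lower (33.3%, beside 34.6% of all genes), with a median log2 fold change of 0.05. The count was 2 with DESeq2, 5 without shNC replicate 1 and 2 without any other sample. SOD3, the extracellular superoxide dismutase, was higher at 9.91 ± 0.331 against 23.2 ± 0.339 CPM (SD, n = 3), a log2 fold change of 1.23 (SE 0.07). The mitochondrial peroxiredoxins differed, PRDX5 being higher (0.13, SE 0.05) and PRDX3 lower (-0.16, SE 0.04), but PRDX5 was not called with DESeq2, with no filter on low counts or without any 1 sample other than shNC replicate 1.

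IER3 (NCBI Gene 8870; chr6:30743199-30744554, minus strand), an immediate early gene product that limits cell death, was lower. Its CPM was 60.4, 56.3 and 59.2 in shNC and 45.4, 45.8 and 44.3 in shMSLN, a log2 fold change of -0.38 (SE 0.05) or 77.0% of control. The groups did not overlap on either scale. The antisense gene IER3-AS1 overlaps it, and reads of the pair cannot be told apart without strand. Of its relatives, IER5L (-0.51, SE 0.12) and IER5 (-0.22, SE 0.06) were lower and IER2 was higher (0.24, SE 0.06). All 3 tested were called, where 34.6% of all tested genes were, though IER5 was not without shMSLN replicate 2. With only 3 genes nothing is read from that count.

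TNIP1 and ZC3H12A, both brakes on NF-kB, were lower, and NFKBIZ was not separated. TNIP1 (NCBI Gene 10318; chr5:151029945-151093577, minus strand) encodes ABIN-1, a ubiquitin-binding partner of TNFAIP3. It was at 161, 163 and 162 CPM in shNC and at 124, 118 and 119 CPM in shMSLN. With an SD of 1.07 CPM the control samples were nearly equal, and the log2 fold change was -0.43 (SE 0.04), or 74.2% of control.

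ZC3H12A (NCBI Gene 80149; chr1:37474552-37484379, plus strand) encodes Regnase-1, an endonuclease that degrades inflammatory mRNAs. It was at 31.4, 29.6 and 29.1 CPM in shNC and at 19.4, 20.5 and 19.5 CPM in shMSLN. The groups were well apart, with a log2 fold change of -0.60 (SE 0.06), or 65.9% of control. Of 6 tested Regnase and Roquin proteins and partners, 2 were lower and 0 higher (33.3%, beside 34.6% of all genes): ZC3H12C (-0.49, SE 0.07) and the protease MALT1 (-0.24, SE 0.07), which cleaves Regnase-1. MALT1 was not called with DESeq2 or without shNC replicate 3, shMSLN replicate 2 or shMSLN replicate 3, each of which left 1 call, and without shNC replicate 1 there were 4.

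NFKBIZ (NCBI Gene 64332; chr3:101827991-101861022, plus strand) encodes the nuclear protein IkB-zeta, which works with NF-kB at secondary response genes. It was at 152.5, 177.1 and 166.5 CPM in shNC and at 150.5, 152.6 and 156.5 CPM in shMSLN. The first control sample lay within the knockdown range, and the log2 fold change was -0.11 (SE 0.05). Without shNC replicate 1 the NFKBIZ log2 fold change was -0.17 and was called, and without shNC replicate 2 it was -0.057 and was not.

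Of the secreted and surface effectors, ICAM1, CSF1 and IL32 were lower and PTGS2 was not separated. ICAM1 (NCBI Gene 3383; chr19:10270835-10286615, plus strand) is the adhesion molecule bound by leukocyte beta-2 integrins. Its CPM was 18.9, 22.3 and 17.9 in shNC and 11.6, 12.0 and 13.0 in shMSLN. All knockdown samples were below all controls, with a log2 fold change of -0.69 (SE 0.09), or 62.0% of control. AC011511.2 and AC011511.5 lie antisense to it.

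Relatives and ligands of ICAM1 were mixed. Of 10 tested, 3 were higher and 2 lower: ICAM2 (0.49, SE 0.09), ICAM5 (0.36, SE 0.07) and ICAM4, the last below 1 CPM in mean, were higher, and ITGB2, the beta-2 integrin chain (-1.09, SE 0.15), and moesin (MSN, -0.13, SE 0.05) were lower. Over all tested genes the share called was 34.6%. The 5 calls became 3 with DESeq2 and without shNC replicate 3 or shMSLN replicate 3, and 7 without shNC replicate 2. With 3 to 7 calls among 10 genes, nothing is read from their count. ICAM4 and MSN were each not called with DESeq2 and without shNC replicate 1, shNC replicate 3 or shMSLN replicate 3, nor was ICAM4 without shMSLN replicate 1, nor MSN without shMSLN replicate 2 or with upper-quartile scaling.

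CSF1 (NCBI Gene 1435; chr1:109910242-109930992, plus strand), the growth factor of macrophages, was at 17.0, 18.6 and 17.9 CPM in shNC and at 11.5, 10.2 and 9.94 CPM in shMSLN. These groups did not overlap, the log2 fold change being -0.76 (SE 0.08). Its level was 59.0% of control in CPM and 63.0% in TPM. The receptor CSF1R reached at most 0.333 CPM and was not tested, and the other ligand, IL34, had a log2 fold change of -0.07 and was not called.

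IL32 (NCBI Gene 9235; chr16:3065297-3082192, plus strand), a proinflammatory cytokine, was the least expressed of the 10 in CPM. It was at 5.25, 6.04 and 4.62 CPM in shNC and at 3.82, 3.25 and 2.65 CPM in shMSLN. The nearest samples of the groups were 4.62 and 3.82 CPM, and the log2 fold change of -0.71 had the largest SE of the 10, 0.17. RNU1-125P and, on the opposite strand, AC108134.3 overlap it. With shMSLN replicates 2 and 3 left out it was -0.47 and was not called.

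PTGS2 (NCBI Gene 5743; chr1:186671791-186680427, minus strand) encodes COX-2, the inducible enzyme of prostaglandin synthesis. It was at 9.52, 10.8 and 9.35 CPM in shNC and at 11.1, 10.8 and 10.3 CPM in shMSLN. The samples overlapped, and the log2 fold change was 0.12 (SE 0.09). Other prostaglandin genes went both ways, 4 higher and 3 lower of 10 tested (70.0%, beside 34.6% of all genes). Its constitutive relative PTGS1 was lower (-1.06, SE 0.17), as were the synthases PTGES (-0.39, SE 0.04) and PTGES2 (-0.25, SE 0.08). The degrading enzyme HPGD (0.51, SE 0.06), the receptor PTGER4 (0.50, SE 0.06) and prostacyclin synthase PTGIS (0.84, SE 0.30), at a mean of 0.939 and 1.69 CPM, were among the higher. The 7 calls became 4 with DESeq2 and without shNC replicate 1, shNC replicate 3 or shMSLN replicate 3. PTGES2 was not called with DESeq2 or without shNC replicate 1, shNC replicate 3, shMSLN replicate 1 or shMSLN replicate 3, nor PTGIS with DESeq2, with limma-voom or without any 1 sample other than shMSLN replicate 1.

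The same 7 of the 10 genes were without overlap in TPM, all lower, where 44.5% of all tested genes were, and limma on log2(TPM + 1) called 7 of 10, where it called 29.8% of the 14552 genes (2648 higher and 1690 lower, a split shifted towards higher from that in counts). The median of all genes on that scale was 0.03. TNFAIP2 had a difference of -0.96, ZC3H12A of -0.54 and CSF1 of -0.59 there.

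Other genes of the pathway are given by lists in which no member stands. The lists too were chosen with earlier results of these data known, so their counts are a description. Of 47 further NF-kB-induced effectors, 34 were tested, and 17 were lower and 1 higher, beside 18.0% and 16.6% of all genes, with a median log2 fold change of -0.30. By smallest adjusted p the lower ones were led by LCN2 (-1.27, SE 0.06), a siderophore-binding protein, the protease PLAU (-0.62, SE 0.05) and complement C3 (-0.64, SE 0.05). GADD45B, a stress sensor, was the one higher (0.44, SE 0.06). Among those named after their values were seen, the chemokine CXCL8 was at 12.4, 13.6 and 12.4 CPM in shNC and at 5.16, 4.99 and 6.10 CPM in shMSLN. CCL20, also a chemokine, was at 2.52, 3.10 and 3.90 against 0.484, 0.841 and 0.904 CPM. Of the list's other tested chemokines, also named after their values were seen, CXCL1 (-0.87, SE 0.15) and CXCL3 (-1.07, SE 0.36) were called lower. CXCL3 was at 0.821, 1.27 and 0.724 CPM in shNC and at 0.376, 0.393 and 0.565 CPM in shMSLN. CXCL3 and CCL20 passed the filter on low counts through shNC, where they were higher. With a stricter filter 15 genes of the list were lower and 1 higher. CCL5 (0.015, SE 0.145), CXCL2 (-0.28, SE 0.46) and CXCL6 (-0.17, SE 0.14) were not called. IL6, CCL2 and CSF3 lacked a value in some samples, and VCAM1, CXCL10 and MMP9 were under the filter.

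All 16 genes of the NF-kB subunits, IkB proteins and IKK kinases were tested, and 9 were lower and 0 higher (56.2%, beside 34.6% of all genes), with a median of -0.21. Without shNC replicate 2 there was also 1 higher. NFKBIA, the IkB-alpha that holds NF-kB back and is its target, was at 134, 132 and 132 CPM in shNC and at 94.7, 87.4 and 87.6 CPM in shMSLN (log2 fold change -0.56, SE 0.04). BCL3, a nuclear IkB protein (-1.03, SE 0.06), and CHUK, the kinase IKK-alpha (-1.0, SE 0.08), were lower as well. Of the subunits, named after their values were seen, RELB (-1.04, SE 0.11), NFKB2 (-0.52, SE 0.05) and NFKB1 (-0.19, SE 0.05) were called lower. RELA (-0.10, SE 0.04, adjusted p = 0.0705 by edgeR) and REL (0.12, SE 0.08, adjusted p = 0.279 by edgeR) were not called.

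Of 11 other brakes on NF-kB, 4 were lower and 0 higher, with a median of -0.07. That is 36.4% of the list beside 34.6% of all genes, and without shNC replicate 2 there was also 1 higher. TNFAIP3, the deubiquitinase A20, was at 31.5, 35.0 and 33.9 CPM in shNC and at 17.1, 18.3 and 16.7 CPM in shMSLN (log2 fold change -0.94, SE 0.07). CYLD, a further deubiquitinase (-0.44, SE 0.08), and the ubiquitin ligase ITCH (-0.18, SE 0.04) were lower.

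TNF and IL-1 receptor signalling had 26 of 29 genes tested, with 6 lower, 3 higher and a median of -0.03. These calls are 34.6% of the list, the same share as over all genes. BIRC3, the inhibitor of apoptosis cIAP2 and itself an NF-kB target, was at 34.5, 45.5 and 36.8 CPM in shNC and at 15.3, 16.7 and 15.5 CPM in shMSLN (log2 fold change -1.30, SE 0.09). IRAK2 (-1.10, SE 0.08) and the receptor IL1R1 (-0.67, SE 0.14) were lower. The kinase IRAK1 (0.61, SE 0.06), the co-receptor IL1RAP (0.32, SE 0.05) and BIRC2 (0.16, SE 0.05), which encodes cIAP1, were higher, BIRC2 not being called without shMSLN replicate 2. TNF itself was at most 0.835 CPM in any sample and was not tested. With shMSLN replicates 2 and 3 left out, 4 genes of receptor signalling were called in place of 9, and 2 of the brakes in place of 4.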

How the data were processed

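RNA-Seq of 3 shNC and 3 shMSLN samples was taken from 1 table in which the authors deposited estimated counts, FPKM and TPM per gene and sample. The authors' estimated counts are not scaled, whereas the deposited FPKM and TPM values are scaled for transcript length and depth. The submitters' processing notes name GRCh38.p13, and the aligner and counter are not given in the sources used here. Every column was matched to a sample by name.

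Genes with a value in all 6 samples (16573 of 17860) were kept, and estimated counts were rounded. Groups were compared by the quasi-likelihood test of edgeR 4.0.16 (R 4.3.3, TMM factors, low counts removed by filterByExpr, Benjamini-Hochberg adjustment over 14552 genes, called at adjusted p below 0.05), with SE as the log2 fold change over the square root of F. It was tested on simulated data. CPM use TMM-scaled library sizes. TPM were tested with limma 3.58.1 on log2(TPM + 1), which understates changes of low genes. At the depth of 17507837 to 18512135 counts a gene at 1 CPM has under 20 reads, so its differences are limited by counting error. Where separate cultures are not stated, p-values measure only the spread between these samples.

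Gene positions are from GENCODE 29 on GRCh38, promoter windows from RefSeq on GRCh38.p14. The words searched were the kB consensus, the looser kB word and TGANTCA, on both strands, and the looser word also takes in every consensus match. The members and lists were chosen with earlier results of these data known. Named are the 10 genes, MSLN, up to 3 genes per direction and list with the smallest adjusted p among those called, and the 5 genes nearest to TNFAIP2 and to SOD2 by Euclidean distance of centred log2 CPM. Some genes that this rule and the marker lists cover are not reported here. WTAP and genes said to be so were named after their values were seen. Alternatives were RLE and upper-quartile scaling, other filters, DESeq2 1.42.0, limma-voom, robust edgeR, missing values as 0, TPM, a replicate block, samples left out, and a fold above 2.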

Additional observations from a re-analysis of the deposited data

How the results depend on the processing

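No fold change of the 10 genes, of MSLN or of the pathway genes named by rule changed sign under any alternative. The split of calls over all genes did turn, from 2411 higher and 2621 lower to 2911 and 2149 with upper-quartile scaling and to 2648 and 1690 on the log2(TPM + 1) scale. The calls of the 10 genes were kept in every edgeR, DESeq2 and limma-voom setting with 5 or 6 samples, except that NFKBIZ was also called without shNC replicate 1 and with the replicate block. SOD2 was lost on the log2(TPM + 1) scale, and SOD2 and IL32 with shMSLN replicates 2 and 3 left out together, where 1 knockdown sample was assumed to vary like the controls.

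In that last setting 1797 genes were called, 4 in TNF and IL-1 receptor signalling and 2 among the brakes, and log2 fold changes were -0.95 for TNFAIP2, -0.39 for TNIP1, -0.47 for IL32 and -0.64 for CSF1. Fewer samples entered it. On the log2(TPM + 1) scale the differences were -0.96 for TNFAIP2, 0.039 for SOD2, -0.40 for TNIP1, -0.54 for ZC3H12A and -0.59 for CSF1. The cause was not tested. Upper-quartile scaling, which moved the median of all genes to 0.03, gave -0.40 for TNIP1. A fold above 2 as a further rule left 285 of 5032 genes. Leaving out 1 sample at a time gave 3695 to 5399 genes called and log2 fold changes of 0.143 to 0.285 for SOD2. DESeq2 called 3863 genes.

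Same-numbered samples deviated with correlations of 0.197, 0.080 and 0.086, so the numbers were not taken as pairing. With the replicate block 5789 genes were called, 9 of the 10 genes among them, with TNFAIP2 at -1.0 and SOD2 at 0.21. IL32 and the chemokines other than CXCL6 and CXCL8, at a few CPM or less, are limited by depth. Higher in shNC were PTGS2 (mean 9.88 CPM in shNC and 10.8 CPM in shMSLN), CXCL8 (12.8 and 5.42 CPM) and CXCL6 (8.2 and 7.3 CPM).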
